A study of Mus musculus with 16 samples.

Results

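Peroxiredoxins and the thioredoxin system were followed in ribosome-associated mRNA from dopaminergic neurons of the mouse substantia nigra pars compacta (SNc), in control mice and in mice lacking the mitochondrial calcium uniporter (MCU-KO). The 10 genes were chosen by name, as the 6 peroxiredoxins (Prdx1 to Prdx6), the thioredoxins Txn1 and Txn2, and the thioredoxin reductases Txnrd1 and Txnrd2, out of 25006 genes in the count tables. All 10 passed the filter on low counts.

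The study asked how SNc dopaminergic neurons fare when calcium can no longer enter mitochondria through the MCU. RiboTag, an epitope-tagged ribosomal protein, was delivered to the SNc of each mouse with an adeno-associated virus that expresses it only where Cre is present, and tagged ribosomes were pulled down 30 days later from dissected tissue. The 8 control mice had the genotype DAT-Cre +/- and are called wild type in the study. The 8 mice of the other group, MCU-KO, carried DAT-Cre+/- together with MCU fl/fl, a floxed allele of Mcu on both chromosomes. All were aged p45 and gave 1 library each. Every mouse, control or MCU-KO, thus carried 1 DAT-Cre allele and received the virus, and Cre came from the dopamine transporter locus, so that both the deletion and the tag depend on cells in which that gene was active. Per the paper's methods, the RiboTag controls came from a separate cross, of DAT-Cre+/+ with C57/BL6 mice, not from the MCU fl/fl breeding. Genotype and breeding cross therefore cannot be told apart here.

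Peroxiredoxins are abundant thiol peroxidases that reduce hydrogen peroxide and organic hydroperoxides through a reactive cysteine. Most of them are returned to the reduced state by thioredoxin, which is itself reduced by thioredoxin reductase at the expense of NADPH. The cytosol and the mitochondrial matrix each hold a chain of their own: Prdx1, Prdx2, Txn1 and Txnrd1 work mainly in the cytosol, while Prdx3, Txn2 and Txnrd2 work in mitochondria. Prdx6, a cytosolic member with a single catalytic cysteine, is usually reduced through glutathione, Prdx4 resides in the endoplasmic reticulum (ER), and Prdx5 is found in mitochondria, peroxisomes and the cytosol. Dopaminergic neurons of the SNc are known for a high basal oxidant load in mitochondria.

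The features that join the chain are visible in the coding sequences, shown here because the cytosolic and mitochondrial partners carry the same catalytic elements in otherwise different genes. Both thioredoxins encode a pair of cysteines separated by glycine and proline, and the stretch in capitals is this redox-active motif, found as the consecutive codons TGN, GGN, CCN and TGN, where N is any base. Each coding sequence held 1 such stretch in frame. The sequences are from GENCODE M21 transcripts on GRCm38, the assembly also called mm10, and both lie on the minus strand. The Txn1 stretch is exonic, at chr4:57951812-57951841, and the Txn2 stretch is coding sequence joined across an intron, so that its 30 bases span chr15:77924642-77927696.
Txn1: gctacgtggTGTGGACCTTGCaaaatgatc
Txn2: gcacagtggTGTGGCCCCTGCaagatccta

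Both reductases end in a selenocysteine, encoded by a TGA codon that would otherwise stop translation. Capitals mark that annotated codon, which stands just before the last amino acid codon and the stop codon. The Txnrd1 stretch is at chr10:82896019-82896045 and the Txnrd2 stretch at chr16:18477754-18477780, both in coding exon sequence on the plus strand of GRCm38. In the annotation, 24 genes carried a selenocysteine codon, these 2 among them.
Txnrd1: atcctccagtctggctgcTGAggttaa
Txnrd2: cctactgtgactggttgcTGAggctaa

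Library totals ranged from 18999107 to 22016362 counts in control mice and from 14129527 to 20582204 in MCU-KO mice, and 3 counts, taken as the detection floor, corresponded to 0.136 to 0.212 CPM (counts scaled to the library size) across libraries. This floor covers counting error only. Dopaminergic markers were abundant in both genotypes. Th, the rate-limiting enzyme of dopamine synthesis, averaged 114253 ± 16933 normalized counts (SD, n = 8) in control and 109826 ± 23963 in MCU-KO mice, and the log2 fold changes of the transporters Slc6a3 and Slc18a2 and of the decarboxylase Ddc were -0.15, 0.20 and -0.01. Normalized counts are counts divided by a size factor per library. The summed level of 9 dopaminergic markers ranged from 13608 to 17191 CPM in control and from 12032 to 19376 CPM in MCU-KO mice, and 0 of the 9 passed the test. Mcu, the targeted gene, averaged 454 ± 274 normalized counts in control and 199.9 ± 139 in MCU-KO mice. Its log2 fold change was -1.19 (SE 0.59, 95% interval -2.41 to 0.04, edgeR adjusted p = 1.00; DESeq2 adjusted p = 0.826), the groups overlapped, and control mice 1 and 8 had 132 and 120.3 normalized counts, inside the MCU-KO range of 5.82 to 410.1. For this single targeted gene the unadjusted p was 0.0569 by edgeR and 0.0405 by DESeq2. A gene count pools all exons and so includes exons that the deletion leaves in place. Whether such exons account for the Mcu counts left in MCU-KO mice was not tested. The paper checked the deletion separately, and reported lower Mcu mRNA by qRT-PCR on RiboTag samples and a reduced mitochondrial calcium response in MCU-KO neurons.

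Transcripts of glia came down with the tagged ribosomes, and their levels are given because Prdx6 and other members are also expressed in glia. Summed oligodendrocyte markers (7 genes, led by Mbp) ranged from 2825 to 5624 CPM in control mice (median 3846) and from 3355 to 6722 in MCU-KO mice (median 4197), and 6 of the 7 had a higher mean in MCU-KO mice. Summed astrocyte markers (8 genes, led by Slc1a2) ranged from 351 to 708 CPM in control mice (median 564) and from 473 to 966 in MCU-KO mice (median 643), and 6 of the 8 had a higher mean in MCU-KO mice. Endothelial and other neuronal markers were lower, with medians of 18.5 and 153 CPM in control and 13.3 and 144 CPM in MCU-KO mice, led by Flt1 and Gad2. None of these markers passed the test after adjustment. In such bulk samples, fewer cells of a type and less RNA per cell cannot be told apart.

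The members differed widely in level. Levels between genes were compared per kilobase of merged exon length, as normalized counts per kb. In control mice Prdx5 was highest at 4971 ± 956 (SD, n = 8), ahead of 98% of the tested genes, and Txn1 followed at 4718 ± 626. Prdx2, the peroxiredoxin best known from red cells and neurons, stood at 3396 ± 571, and the mitochondrial Prdx3 at 2541 ± 439. Prdx3, the lowest of these 4, still exceeded 95.7% of the tested genes.

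The middle of the order was taken by Prdx1 at 1423 ± 216, Txn2 at 1055 ± 218, Prdx6 at 883 ± 124 and Prdx4 at 535 ± 102 normalized counts per kb. The 2 reductases were lowest, Txnrd1 at 242 ± 77.7 and Txnrd2 at 216 ± 85.5, at the 68.6th and 66.4th percentiles. From the first to the last gene the level fell 23-fold. Per length, the enzymes that recycle the thioredoxins thus stood below the peroxidases and the thioredoxins themselves.

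Neighbours in this order were compared within each control mouse by an exact 2-sided sign-flip permutation test, adjusted over the 9 pairs, where the smallest p the 8 mice allow is 0.00781. The order came from the same 8 mice, so the choice of pairs and their direction rest on the values tested. In 6 of the 9 pairs the difference passed. Txn1 exceeded Prdx2 by 0.48 ± 0.19 on the log2 scale in 8 of 8 mice (adjusted p = 0.0176). The same adjusted p was found for 3 further pairs: Prdx3 exceeded Prdx1 by 0.83 ± 0.25 in 8 of 8, Prdx6 exceeded Prdx4 by 0.73 ± 0.34 in 8 of 8, and Prdx4 exceeded Txnrd1 by 1.18 ± 0.45 in 8 of 8. The pairs that could not be ordered beyond their spread were Prdx5 and Txn1 (0.06 ± 0.41, p = 0.664 by the same exact test), Txn2 and Prdx6 (0.24 ± 0.40, p = 0.133) and Txnrd1 and Txnrd2 (0.25 ± 0.94, p = 0.469). Prdx2 over Prdx3 (0.42 ± 0.34, adjusted p = 0.0281, exact) and Prdx1 over Txn2 (0.45 ± 0.36, adjusted p = 0.0469, exact) passed with all mice. Without any 1 of control mice 1, 2, 3, 5 and 6 the adjusted p of Prdx2 over Prdx3 was 0.0563, and Prdx1 over Txn2 missed the threshold without any 1 of those or mouse 7 (adjusted p = 0.0804 to 0.0938, exact). The count of passing pairs was thus 4 to 6 over the omission of single mice.

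The order depends on the length used. With the longest annotated transcript as the length, Prdx2 ranked first and exceeded Txn1 in 8 of 8 mice, and 5 of the 10 genes kept their rank. Txn2 then stood above Prdx1, with 2166 against 1887 normalized counts per kb, whereas Prdx3 still exceeded Prdx1 by 0.43 ± 0.25 in 8 of 8 mice. In MCU-KO mice 8 of the 10 genes kept their rank per merged exon length, and only Txn1 and Prdx5 changed places. That pair did not differ beyond its spread in either genotype (p = 0.266 in MCU-KO mice, exact test).

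**Figure D1:**
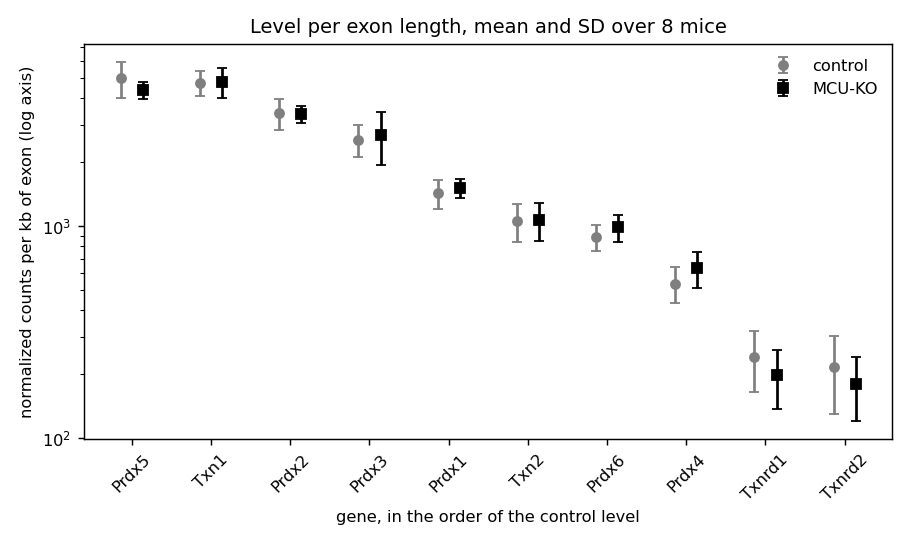
Level of the 10 genes per kilobase of merged exon (vertical axis, normalized counts per kb, log axis), in the order of the control mean. Circles are control and squares MCU-KO means, and bars are SDs over 8 mice; the levels fall from 4971 for Prdx5 to 216 for Txnrd2 in control mice, and the bars of both genotypes overlap for each gene.

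Between the genotypes, none of the 10 genes passed the test. By edgeR 0 of 10 passed an adjusted p of 0.05, where 0.178% of the 12390 tested genes did, and 0 of 10 had an unadjusted p under 0.05, where 4.41% did. The edgeR adjusted p was 1.00 for each of the 10. DESeq2 and limma-voom likewise called 0 of 10 at either level, against 0.557% and 0.234% of the genes they tested after adjustment and 5.37% and 7.29% before it. The 2 groups of mice overlapped for 10 of 10 genes, and 0.258% of tested genes had groups that did not overlap. The log2 fold changes (MCU-KO over control) ran from -0.28 to 0.24, with 6 above and 4 below 0, a median of 0.02 (0.00253 over the tested genes) and a median size of 0.12 (0.21 over the tested genes).

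The 95% intervals set a bound on what could have been missed. For 10 of 10 genes the interval lay within ± 1 on the log2 scale, as it did for 51.8% of the tested genes, and for 7 of 10 within ± 0.5, as for 20.1% of the tested genes. The 3 genes with wider intervals were Prdx4, Txnrd1 and Txnrd2. Smaller differences than these intervals were not resolved. By mean counts in control mice the members stood between the 65.3rd percentile of tested genes (Txnrd2) and the 97.9th (Prdx5). Neither the interval shares nor the median size above were matched for level.

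**Figure D2:**
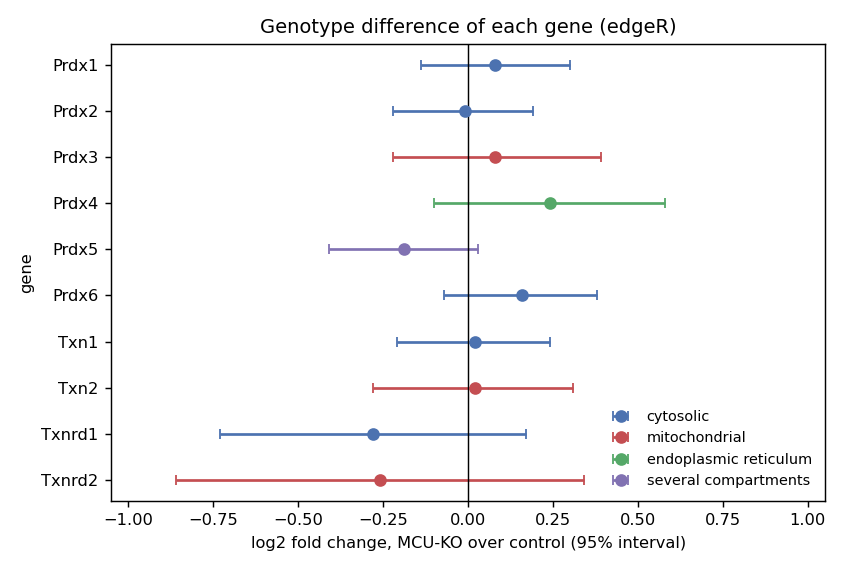
Log2 fold change of each gene (horizontal axis, MCU-KO over control, edgeR) with its 95% interval, coloured by compartment. All 10 intervals include 0, and they widen from -0.22 to 0.19 for Prdx2 to -0.86 to 0.34 for Txnrd2.

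Among the cytosolic peroxiredoxins, Prdx1 (chr4:116685544-116700822, plus strand) ranged from 3406 to 5132 normalized counts in control mice (median 4582) and from 3815 to 5140 in MCU-KO mice (median 4617). Its log2 fold change was 0.08 (SE 0.11, 95% interval -0.14 to 0.30), and both ranges covered nearly the same span. Prdx2 (chr8:84969587-84974834, plus strand) ranged from 8241 to 13358 in control mice (median 10146) and from 8584 to 11526 in MCU-KO mice (median 10515), with a log2 fold change of -0.01 (SE 0.10, 95% interval -0.22 to 0.19). The highest values belonged to control mice 6 and 2, and the MCU-KO mice all lay within the control range. About 8.811% of the 50-base stretches of Prdx1 and 12.043% of those of Prdx2 also occur in other annotated genes, and 350 exonic bases of Prdx2 overlap Rnaseh2a and Junb on the other strand.

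Prdx6 (chr1:161240112-161251219, minus strand), which also has phospholipase activity, ranged from 3324 to 5223 normalized counts in control mice (median 4158) and from 3454 to 5856 in MCU-KO mice (median 4696). Of the MCU-KO mice, 7 of 8 lay above the control median, and the groups overlapped. The log2 fold change was 0.16 (SE 0.11, 95% interval -0.07 to 0.38, edgeR adjusted p = 1.00). The astrocyte and oligodendrocyte markers described above had higher medians in the same mice. With the mean astrocyte marker level as a covariate the log2 fold change of Prdx6 was 0.15, and with the oligodendrocyte markers 0.14.

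Prdx3 (chr19:60864051-60874556, minus strand), the peroxidase of the mitochondrial matrix, ranged from 3018 to 4964 in control mice (median 3659) and from 2898 to 6303 in MCU-KO mice (median 3463). Its log2 fold change was 0.08 (SE 0.15, 95% interval -0.22 to 0.39). MCU-KO mouse 7 was the highest of all 16 mice, and without it the log2 fold change was -0.04. The direction of Prdx3 thus rested on 1 mouse, and 3 of 8 MCU-KO mice exceeded the control median.

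Prdx5 (chr19:6906697-6910106, minus strand) ranged from 7672 to 13853 normalized counts in control mice (median 10826) and from 8354 to 10915 in MCU-KO mice (median 9188). Only MCU-KO mouse 5 exceeded the control median, but control mice 1 and 2, at 7672 and 8469, were among the 3 lowest of the 16. The mean was 10632 ± 2045 in control and 9315 ± 872 in MCU-KO mice. The log2 fold change of -0.19 (SE 0.11, 95% interval -0.41 to 0.03) had the smallest p of the 10 genes and did not pass (edgeR adjusted p = 1.00; DESeq2 adjusted p = 0.941). Its unadjusted p was under 0.05 without control mouse 1 and without control mouse 2, and no omission of a single mouse gave an adjusted p under 0.79. Reads from 409 exonic bases that Prdx5 shares with Trmt112 on the other strand cannot be assigned without strand, and the strand setting of the counting is not given in the sources used here.

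Prdx4 (chrX:155323918-155340754, minus strand), which works beside protein disulfide isomerases in the ER, ranged from 899 to 1579 normalized counts in control mice (median 1063) and from 937 to 1747 in MCU-KO mice (median 1337). It had the largest positive log2 fold change of the 10 genes, 0.24 (SE 0.16, 95% interval -0.10 to 0.58). The control median was exceeded by 6 of 8 MCU-KO mice, while control mouse 6 stood above all but 1 of them.

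Within the peroxiredoxin family, per merged exon length, the order of the shares of the mRNA pool was the same in both genotypes. Per kb of exon, Prdx5 made up 36% ± 5.54 of the summed level of the 6 genes in control mice and 32.3% ± 3.65 in MCU-KO mice (SD, n = 8). Prdx2 followed with 24.7% ± 3.51 and 24.9% ± 1.61, and Prdx3 with 18.5% ± 2.82 and 19.7% ± 4.29. Prdx1, Prdx6 and Prdx4 made up the rest, with 10.4%, 6.5% and 3.9% in control and 11.1%, 7.28% and 4.67% in MCU-KO mice. The ranges overlapped for every gene, and these shares were not tested, since a share of chosen genes repeats the values above. The shares depend on the length used. With the longest transcript as length, Prdx2 stood above Prdx5 in control mice, with 6426 against 5823 normalized counts per kb.

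**Figure D3:**
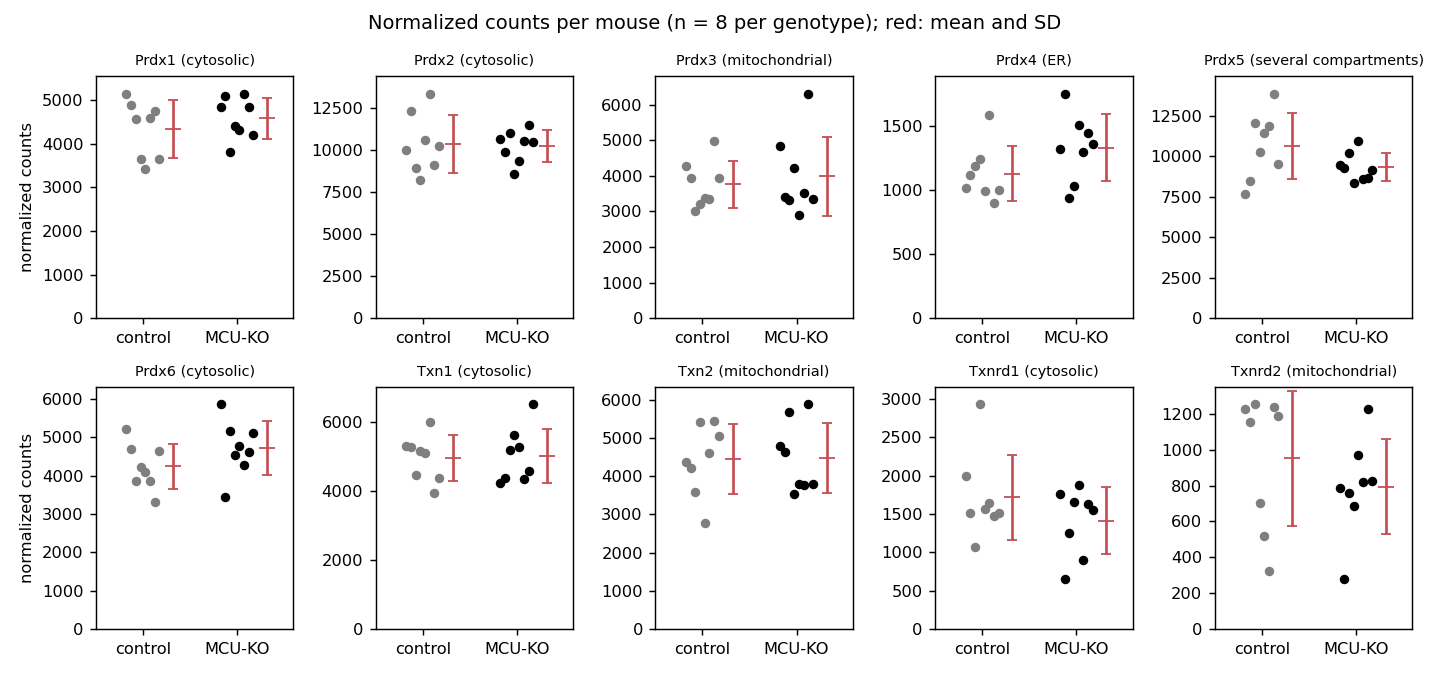
Normalized counts (vertical axes, from 0) of the 10 genes in each of 8 control (gray) and 8 MCU-KO (black) mice, with the mean and SD in red. The groups overlap in all 10 panels; Prdx5 shows 1 MCU-KO mouse above the control median of 10826, and Txnrd2 shows control values split between 323 to 704 in 3 mice and 1157 to 1253 in the other mice.

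The thioredoxins were as close. Txn1 (chr4:57943373-57956411, minus strand), the cytosolic and nuclear thioredoxin, ranged from 3943 to 6019 normalized counts in control mice (median 5127) and from 4237 to 6513 in MCU-KO mice (median 4880). Txn2 (chr15:77915047-77929006, minus strand), its mitochondrial counterpart, ranged from 2784 to 5453 in control mice (median 4491) and from 3525 to 5876 in MCU-KO mice (median 4216). Their log2 fold changes were both 0.02 (SE 0.11 and 0.14), with 95% intervals of -0.21 to 0.24 for Txn1 and -0.28 to 0.31 for Txn2, and 4 of 8 MCU-KO mice lay above the control median for each. The sign of both changed with the omission of single mice, over a range of -0.04 to 0.07 for Txn1 and -0.06 to 0.07 for Txn2. A processed copy of Txn1, Txn-ps1, shares 2.495% of its 50-base stretches.

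The reductases had the lowest levels per kb of exon and the widest relative spread between mice. Txnrd1 (chr10:82833951-82897712, plus strand) ranged from 1075 to 2929 normalized counts in control mice (median 1542) and from 655 to 1881 in MCU-KO mice (median 1595). The highest value belonged to control mouse 4 and the lowest to MCU-KO mouse 2, and 5 of 8 MCU-KO mice exceeded the control median although their mean was lower. The log2 fold change was -0.28 (SE 0.22, 95% interval -0.73 to 0.17). Omitting single mice moved it between -0.35 and -0.13.

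Txnrd2 (chr16:18426384-18479073, plus strand) ranged from 323 to 1253 normalized counts in control mice (median 1173) and from 281 to 1230 in MCU-KO mice (median 803). Control mice 4, 5 and 6 had 704, 519 and 323, whereas the other control mice lay between 1157 and 1253. Of the MCU-KO mice, only mouse 7 exceeded the control median, and mouse 2 was lowest, as it was for Txnrd1. The log2 fold change was -0.26 (SE 0.29, 95% interval -0.86 to 0.34). It was -0.13 without MCU-KO mouse 2 and -0.39 without control mouse 6, the ends of its range over the omission of single mice.

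The spread between mice was far above counting error. The coefficient of variation of Txnrd2 was 39.5% in control and 33.6% in MCU-KO mice, and that of Txnrd1 32.1% and 30.9%, where their mean counts in control mice allow 3.15% and 2.34% from counting alone. For Prdx2 it was 16.8% and 9.21%, against 0.955% from counting, and for Prdx5 19.2% and 9.37%, against 0.944%. On edgeR's scale of biological variation, Prdx2 was less variable than nearly all tested genes, with 2.75% of them lower, and for Prdx1, Prdx5, Txn1 and Prdx6 4.13% to 5.19% of them were lower. Txnrd1 and Txnrd2, with 28.3% and 42.8% of tested genes lower, stood nearer to the middle. Mean counts in control mice placed Prdx2 above 97.7% of the tested genes and Txnrd2 above 65.3%. The comparison of variation was not matched for level, so a low rank is not a trait of these genes apart from their abundance.

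The rule sets the cytosolic against the mitochondrial members, and the balance between them differed between the genotypes by less than the spread between mice. As a mean of log2 CPM, the mitochondrial genes Prdx3, Txn2 and Txnrd2 stood below the 5 cytosolic genes by -0.84 ± 0.39 (SD, n = 8) in control mice, from -1.47 in mouse 6 to -0.25 in mouse 7. In MCU-KO mice the difference was -0.88 ± 0.25, from -1.10 in mouse 8 to -0.34 in mouse 7. The genotypes differed by -0.04, which is smaller than either SD, and a score over chosen genes was given no test. The size of the difference within a mouse is not corrected for length, so only its change between mice can be read. The cytosolic mean hardly varied (7.81 ± 0.14 and 7.80 ± 0.15), and the mitochondrial mean varied more (6.97 ± 0.34 and 6.92 ± 0.32). These SDs are not like for like, since the means cover 5 and 3 genes. The mitochondrial mean also includes Txnrd2, the member with the widest relative spread in both genotypes.

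Per kb of exon, the relation between the 2 compartments depended on the step of the chain and on the cytosolic peroxiredoxin chosen. Prdx3 exceeded Prdx1 in 8 of 8 control and 8 of 8 MCU-KO mice, by 0.83 ± 0.25 and 0.80 ± 0.34 on the log2 scale. Prdx2, also cytosolic, instead exceeded Prdx3, by 0.42 ± 0.34 in 7 of 8 control and 0.36 ± 0.34 in 6 of 8 MCU-KO mice. At the next step Txn2 lay below Txn1 in every mouse, with a log2 ratio of -2.18 ± 0.41 in control and -2.17 ± 0.43 in MCU-KO mice. Per merged exon length the thioredoxin order was thus opposite to that of Prdx3 and Prdx1, but the same as that of Prdx3 and Prdx2. These ratios depend on the length used. With the longest transcript as length Txn1 and Txn2 stood at 4718 and 2166 normalized counts per kb in control mice, closer than per merged exon, and with no length scaling Prdx3 lay below Prdx1 by a log2 ratio of -0.21 ± 0.25, exceeding it in 2 of 8 control mice. Per merged exon length Txnrd2 and Txnrd1 had no fixed order. Their log2 ratio was -0.25 ± 0.94 in control mice, above 0 in 4 of 8, and -0.16 ± 0.40 in MCU-KO mice, above 0 in 2 of 8. In control mice it ran from -1.66 in mouse 6 to 0.91 in mouse 3. Without length scaling Txnrd1 exceeded Txnrd2 by 0.93 ± 0.94 in 7 of 8 control mice (adjusted p = 0.0281, exact sign-flip test). By the longest transcript it did so by 0.60 ± 0.94 in 6 of 8 (adjusted p = 0.185, same test).

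**Figure D4:**
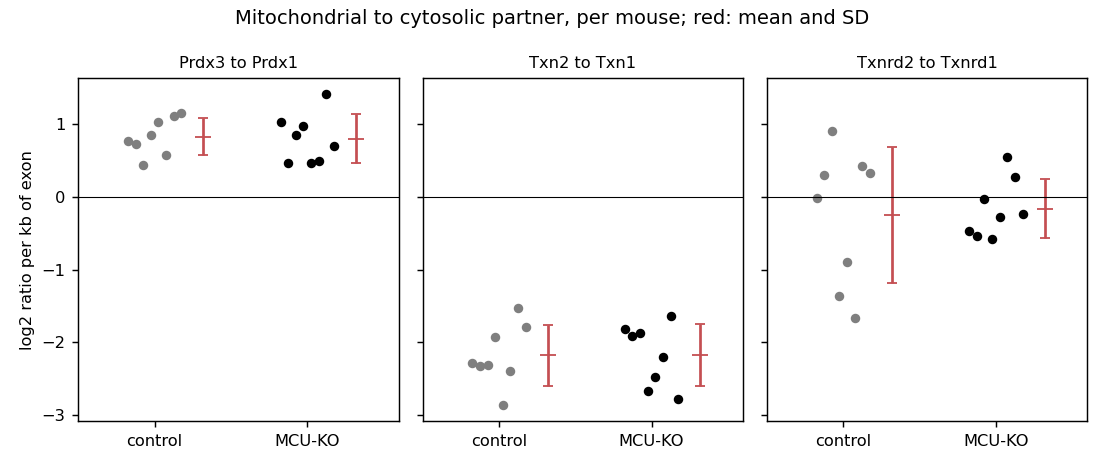
Log2 ratio of the mitochondrial to the cytosolic partner per kilobase of exon (vertical axis) in each of 8 control (gray) and 8 MCU-KO (black) mice, with the mean and SD in red. Prdx3 to Prdx1 lies above 0 and Txn2 to Txn1 below 0 in all mice, while Txnrd2 to Txnrd1 spreads from -1.66 to 0.91 in control mice.

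The 10 genes did not vary together from mouse to mouse. Over 16 mice, with each genotype centred on its own mean, Pearson's r of log2 CPM for the 45 pairs ran from -0.52 to 0.58, with a median of 0.06, and 26 of them were above 0. The extremes were Prdx5 with Prdx6 at -0.52 and Prdx6 with Txnrd1 at 0.58. Both genes of a pair come from the same libraries, so these values describe the libraries as well as the genes.

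For each gene, 1 other tested gene had the highest r over the same 16 mice. These were Alkbh1 for Prdx1 (r = 0.87), Jagn1 for Prdx2 (0.80), Nup214 for Prdx3 (0.81), AU040320 for Prdx4 (0.82), Dusp3 for Prdx5 (0.83), Dram2 for Prdx6 (0.79), Dazap2 for Txn1 (0.81), Flcn for Txn2 (0.87), Pcdhb13 for Txnrd1 (0.83) and Ccpg1os for Txnrd2 (0.84). Each is the highest over the 12390 tested genes apart from the members and is high by that choice. All 10 partners were different genes.

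The wider pathway was read from 7 lists with 59 genes, of which 58 were tested. None passed after adjustment in either direction (edgeR, with 0.0888% of tested genes passing in each). By edgeR 2 had an unadjusted p under 0.05, both lower in MCU-KO mice, where 4.41% of all tested genes did. These 2 are described below only as the genes of smallest p in their lists. DESeq2 and limma-voom likewise called 0 after adjustment. They had 3 and 1 under an unadjusted p of 0.05, where 5.37% and 7.29% of the genes they tested were. Of the 58, 27 had a higher and 31 a lower mean, and the median log2 fold change was -0.02.

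The first of the 2 was Msra, which uses thioredoxin to reduce oxidized methionine. It ranged from 524 to 1273 normalized counts in control mice (median 1061) and from 317 to 883 in MCU-KO mice (median 677), so that 8 of 8 MCU-KO mice lay below the control median while the groups overlapped. Its log2 fold change was -0.56 (SE 0.23, 95% interval -1.04 to -0.08, edgeR adjusted p = 1.00; DESeq2 adjusted p = 0.641). The other 3 methionine sulfoxide reductases did not accompany it past an unadjusted p of 0.05.

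The second was Txndc15, a membrane protein with a thioredoxin domain, with 4488 ± 683 normalized counts in control and 3796 ± 528 in MCU-KO mice. Its log2 fold change was -0.24 (SE 0.11, 95% interval -0.48 to -0.01, edgeR adjusted p = 1.00), and again 8 of 8 MCU-KO mice lay below the control median. It was the only 1 of 20 thioredoxin-fold and glutaredoxin genes at that level, and the list split into 11 higher and 9 lower.

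In the other lists no gene had an unadjusted p under 0.05 by edgeR, and the gene with the smallest p is given for each. Sesn1, a sestrin induced by p53, had 673 ± 279.8 and 435 ± 231 normalized counts in control and MCU-KO mice (log2 fold change -0.63, SE 0.38, 95% interval -1.41 to 0.15), in a list of 6 cycle regulators with 3 higher and 3 lower. Eefsec, the elongation factor that brings selenocysteine to the ribosome and so serves both reductases, had 579.6 ± 104 and 411 ± 144 (-0.49, SE 0.26, 95% interval -1.02 to 0.04), and DESeq2 gave it an unadjusted p under 0.05 and an adjusted p of 0.804. Its list of 6 selenocysteine genes had 2 higher and 4 lower.

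For NADPH supply, Idh1, the cytosolic isocitrate dehydrogenase, had 1104 ± 379 and 1378 ± 223 normalized counts (log2 fold change 0.32, SE 0.21), with 6 of 9 tested genes higher. For oxidative folding in the ER, where Prdx4 acts, P4hb had 2770 ± 878 and 2320 ± 580.1 (-0.26, SE 0.18), with 6 of 9 lower. The 4 genes in the list of glutathione peroxidases and glutathione reductase all had log2 fold changes below 0, with a median log2 fold change of -0.07, and Gpx1 had the smallest p (-0.06, SE 0.12).

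2 cycle regulators outside the naming rule were looked up after the values had been seen, because they act directly on these proteins. Srxn1, sulfiredoxin, which restores peroxiredoxins whose cysteine has been over-oxidized, had 2450 ± 473 normalized counts in control and 2128 ± 337 in MCU-KO mice (log2 fold change -0.20, SE 0.14). Txnip, which binds and inhibits thioredoxin, was barely present, with 42.1 ± 53.1 and 42.8 ± 66 normalized counts, and 4 control and 3 MCU-KO mice had a count of 0. Its interval of -3.09 to 3.13 on the log2 scale is far wider than that of any of the 10 genes.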

How the data were processed

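RNA was pulled down from SNc tissue of 16 mice. Per the study's methods the authors trimmed adapters with cutadapt (Trim Galore in the submitters' processing notes), aligned reads to mm10 with STAR and counted them with HTSeq on an Ensembl annotation. They deposited raw whole-number counts per gene; tool versions, strand setting and Ensembl release are not given in the sources used here.

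Identifiers were matched to GENCODE M21 (24942 of 25006 had a symbol). Genotypes were compared with edgeR 4.0.16 in R 4.3.3 (filterByExpr, TMM, glmQLFit, glmQLFTest, genotype only) over 12390 genes, with Benjamini-Hochberg adjustment and a threshold of 0.05, and tested on simulated data. Standard errors and 95% intervals come from the coefficient and the F statistic. DESeq2 1.42.0 gave size factors and, with limma 3.58.1, alternative tests. Log2 CPM used a prior count of 2, and sign-flip tests log2(count + 1) per kb. Other normalizations, filters, lengths, glial and Xist covariates, a block for mouse number and the omission of each mouse were alternatives.

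The members and lists were chosen with earlier results of these data known. Besides the 10 members, Mcu and 4 dopaminergic genes, the genes named were, by rule, those past the threshold or else of smallest p in each pathway list, the marker with most counts in each list, and the closest correlate of each member. The microglial list is not reported here. Totals of 14129527 to 22016362 counts set the depth, and no 2 libraries of the same genotype agreed within sampling noise.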

Additional observations from a re-analysis of the deposited data

Results flagged for a closer look

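In 4 of 48 groups of 8 mice, 1 mouse stood apart by Dixon's test at its 95% level, where chance gives about 2.4. For the difference between mitochondrial and cytosolic members on the log2 CPM scale it was MCU-KO mouse 7 at -0.34, the mouse that also had the highest Prdx3. For the summed markers of other neurons it was control mouse 3 at 260.4 CPM and MCU-KO mouse 6 at 290.3 CPM. For library size it was MCU-KO mouse 8, with 14129527 counts.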

How the results depend on the processing

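Over 10 alternatives and 16 omissions of 1 mouse, 0 of the 10 genes and 0 of the pathway genes passed after adjustment, and the smallest adjusted p of a member was 0.57. Over all genes the count of 22 became 90 with DESeq2, 14 with a replicate block for mouse number, and 18 to 24 with single mice left out. Same-numbered mice are different animals, and correlations of their deviations ran from -0.0612 to 0.0309, with 0 of 8 mice matching their own number best, so the numbers do not pair them. The block gave log2 fold changes of -0.17 for Prdx5 and 0.23 for Prdx4. For the compartment difference, the mean over same-numbered mice equals the difference of the group means, -0.04, by arithmetic and so tests nothing. The sign of a member changed in 6 of 100 values under alternatives, all for differences near 0. Limma-voom gave 0.00 for Prdx2 and -0.01 for Txn2, the astrocyte covariate 0.08 for Prdx2 and -0.01 for Txn1, and the oligodendrocyte covariate 0.02 and -0.03 for the same genes; the cause was not tested. With single mice left out, signs changed in 14 of 160 values, over -0.05 to 0.05 for Prdx2, -0.04 to 0.16 for Prdx3, -0.04 to 0.07 for Txn1 and -0.06 to 0.07 for Txn2. The compartment difference stayed between -0.07 and -0.03 under alternatives and ran from -0.13 to 0.05 with single mice left out. The number of neighbouring pairs told apart in the order given, 6, was 4 with the longest transcript as length, where Txn1 and Prdx2 were told apart in the reverse order, and 4 with no length scaling, where that pair and Prdx4 and Txnrd1 were reversed. It was 5 in MCU-KO mice and 4 to 6 with single control mice left out.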
